A study of Homo sapiens with 3 samples.

Results

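H19, IGF2 and 8 other imprinted genes (CDKN1C, KCNQ1OT1, PHLDA2, MEST, PEG10, SNRPN, GNAS and NNAT) were examined in BEX2-/- DLD1 cells and DLD1 control cells. They are 10 of the 60504 gene identifiers in the expression table and were taken by symbol. H19 was chosen by its lower FPKM in the BEX2-/- libraries of these same data, and the others as its neighbours or as imprinted genes, so the values of H19 are given as a description without a test. The question was whether the low level of H19 extended to its neighbours on chromosome 11 or to imprinted genes elsewhere in the genome.

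RNA-Seq had been carried out on 3 libraries of DLD1, an established colorectal cancer cell line. The control was 1 library of wild type DLD1 cells, and the knockout was represented by 2 libraries, labelled KO1 and KO2, of DLD1 cells in which BEX2 was knocked out with CRISPR/Cas9. No agent was given and no time course was sampled. The sources used here do not say whether KO1 and KO2 were separate clones or samples of a single knockout line, so a property of a line and an effect of the genotype cannot be told apart.

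Imprinted genes are transcribed mainly or solely from the copy inherited from a particular parent, and differential DNA methylation laid down in the germ line marks the copies. At the H19/IGF2 locus, CTCF binds the unmethylated maternal control region, H19 is transcribed from the maternal copy, and IGF2, which encodes a fetal growth factor, is transcribed from the paternal copy through enhancers that both genes share. A second domain on the same chromosome arm contains CDKN1C, PHLDA2 and SLC22A18, which are maternally expressed, and KCNQ1OT1, a paternally expressed noncoding RNA. RNA from the parental copies of a gene was measured together here, so the copies were not distinguished. DNA methylation was not measured.

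The sequence around the start of H19 is shown because the fall of the H19 RNA is the pattern that the comparisons start from, and that of MRPL23-AS1 is shown because this noncoding gene is the next one downstream on the same strand. Both run from 250 bases before to 50 bases after the annotated start (RefSeq, GRCh38.p14, minus strand), at chr11:2001217-2001516 for H19 and chr11:1989871-1990170 for MRPL23-AS1. Capitals mark CpG dinucleotides, the sites at which DNA can be methylated.
H19 promoter: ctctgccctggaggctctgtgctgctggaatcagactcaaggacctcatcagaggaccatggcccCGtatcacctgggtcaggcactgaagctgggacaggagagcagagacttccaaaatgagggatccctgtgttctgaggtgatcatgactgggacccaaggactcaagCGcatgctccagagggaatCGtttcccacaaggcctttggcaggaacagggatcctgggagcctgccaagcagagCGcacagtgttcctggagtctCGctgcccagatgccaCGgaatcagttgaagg
MRPL23-AS1 promoter: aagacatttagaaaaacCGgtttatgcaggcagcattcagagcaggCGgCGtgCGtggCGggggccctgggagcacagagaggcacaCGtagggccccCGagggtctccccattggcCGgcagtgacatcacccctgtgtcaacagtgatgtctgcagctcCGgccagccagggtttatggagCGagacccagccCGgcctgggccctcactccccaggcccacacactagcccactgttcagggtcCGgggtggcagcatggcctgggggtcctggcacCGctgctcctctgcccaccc
The H19 window held 6 CpG dinucleotides and had a GC content of 57.7%, and 33.7% of all promoter windows of this length held fewer. The MRPL23-AS1 window held 13, at a GC content of 65.7%, against a median of 14 over all windows. H19 also carries the hairpin of a microRNA, which lies within 4 of the 12 annotated H19 transcripts. Its mature forms are given with the seed (bases 2 to 8, the part that pairs with targets) in capitals, because they are cut from H19 RNA. They lie at chr11:1996768-1996787 and chr11:1996800-1996822 of the same build, on the minus strand, and have different seeds.
hsa-miR-675-3p: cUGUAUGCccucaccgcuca
hsa-miR-675-5p: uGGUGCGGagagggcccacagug
Mature microRNAs were not measured in these libraries.

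Depth, recovered from the steps between low values, was 47458720 reads in the control, 35594063 in KO1 and 47722313 in KO2. No BEX2 RNA was found in any library, with 3 reads corresponding to 0.0535 to 0.0717 FPKM (fragments per kilobase of exon, scaled to sequencing depth), so the targeted gene could not be used to check the labels. All 7 markers of colorectal epithelium were expressed and summed to 1600, 1656 and 1855 FPKM in the control, KO1 and KO2. Among them, VIL1, which encodes the brush border protein villin, was at 3.61 FPKM in the control, 13.2 in KO1 and 0.221 in KO2. The 5 markers of fibroblasts, leukocytes and endothelium (VIM, COL1A1, COL1A2, PTPRC and PECAM1) summed to 0.0428 to 0.129 FPKM, with PTPRC at 0 throughout.

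H19 (ENSG00000130600), a long noncoding RNA abundant in fetal tissue, spans chromosome 11 from 1995176 to 2001470 on the minus strand (GENCODE release 29, GRCh38). It measured 109 FPKM in the control, 30.3 in KO1 and 4.55 in KO2, or about 15027, 3124 and 629 reads. The control was highest and KO2 lowest, and the gap between the knockout libraries was itself wide. KO1 had 27.7% of the control level and KO2 had 4.16%, which is 3.61-fold and 24.0-fold lower, in a background where 0.959% of genes were at least 2-fold lower in KO1 and 0.737% in KO2. KO2 was 6.66-fold below KO1 (ratio 0.150, 95% counting interval 0.138 to 0.164), and the knockout libraries together had 17.4 ± 18.2 FPKM (SD, n = 2). By level, H19 ranked 267 among all genes in the control, 1188 in KO1 and 6635 in KO2. On the log2(FPKM + 1) scale, on which the 2-fold rule and the limma tests were applied, the ratio was -1.82 in KO1 and -4.31 in KO2. Fewer cells with H19 RNA and less H19 RNA per cell cannot be told apart in such libraries.

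**Figure D1:**
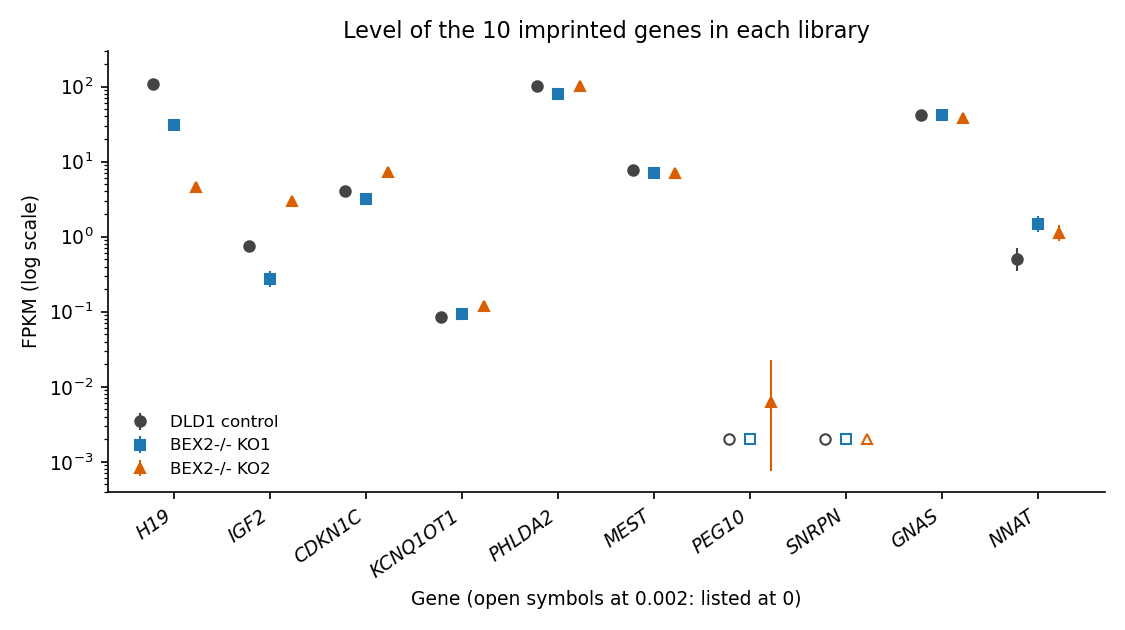
FPKM of the 10 imprinted genes in DLD1 control cells and BEX2-/- libraries KO1 and KO2, on a log scale, with 95% counting intervals as vertical lines where they exceed the symbol. Open symbols mark genes listed at 0. H19 fell from 109 to 30.3 and 4.55 FPKM, while IGF2 and CDKN1C lay below the control in KO1 and above it in KO2.

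Of the 10 genes, 6 passed the filter of a mean of at least 1 FPKM (H19, IGF2, CDKN1C, PHLDA2, MEST and GNAS), and IGF2 did so only through its level in KO2. H19 was the single one of the 6 that was at least 2-fold from the control in the same direction in both knockout libraries, a property of 0.325% of all 11675 genes past the filter (0.206% lower and 0.12% higher). Since H19 was chosen for this fall, nothing is read from its count. Among the other 5, limma called 0 at an adjusted p under 0.05, and 0 had an unadjusted p under 0.05. Over all genes limma called 0% with adjustment, and 1.19% had an unadjusted p under 0.05, so with 1 control library no gene was separated from the spread between the knockout libraries after adjustment.

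IGF2 (ENSG00000167244; chromosome 11, 2129112 to 2149603, minus strand), the reciprocally imprinted partner of H19, was at 0.761 FPKM in the control, 0.274 in KO1 and 2.996 in KO2. About 252, 68 and 998 reads lay behind these values. KO1 was thus below the control and KO2 above it. The ratio to the control was 0.360 (95% counting interval 0.271 to 0.472) in KO1 and 3.94 (3.43 to 4.54) in KO2. Between the knockout libraries the ratio was 10.9 (8.56 to 14.2), so that of these the library with less H19 had more IGF2. Against the control, KO1 had less of both RNAs, so the inverse order did not hold over all libraries. A difference of at least 2-fold between the knockout libraries was found in 4.19% of all genes past the filter, and 1.33% were at least 2-fold above the control in KO2. The knockout libraries averaged 1.64 ± 1.93 FPKM (SD, n = 2), and the limma estimate was a log2 difference of 0.36 (SE 0.80, 95% interval -1.97 to 2.68, adjusted p = 1.00). No direction for the knockout could therefore be given for IGF2.

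Overlapping transcripts limit what the IGF2 row stands for, since 75.0% of its exon bases are shared with other genes and the library kit did not keep strand. INS-IGF2, a readthrough gene whose exons all overlap those of other genes, was listed at 0 in each library. IGF2-AS, a noncoding gene on the opposite strand, had 3 reads in the control, 0 in KO1 and 21 in KO2, the same order as IGF2. Its KO2 ratio was 6.96 (2.08 to 36.4). MIR483, a microRNA gene inside an IGF2 intron, was listed at 0 throughout.

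CDKN1C (ENSG00000129757; chromosome 11, 2883213 to 2885773, minus strand) encodes p57, an inhibitor of cyclin-dependent kinases. It measured 4.05 FPKM in the control, 3.13 in KO1 and 7.33 in KO2. As with IGF2, the control lay between the knockout libraries, a common order (32.4% of all genes were higher and 27.7% lower in both). The ratios were 0.773 (0.664 to 0.899) and 1.81 (1.62 to 2.03), and the limma log2 difference was 0.22 (SE 0.50, 95% interval -1.25 to 1.68, adjusted p = 1.00).

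PHLDA2 (ENSG00000181649; chromosome 11, 2928273 to 2929455, minus strand), known for restraining placental growth, was at 100.2 FPKM in the control, 79.9 in KO1 and 102 in KO2. In the control it was nearly as abundant as H19, and in KO2, where H19 was lowest, it differed from the control by less than counting error (ratio 1.02, 0.976 to 1.06). Its limma log2 difference was -0.15 (SE 0.23, 95% interval -0.82 to 0.52, adjusted p = 1.00).

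KCNQ1OT1 (ENSG00000269821), which spans 91.67 kb of chromosome 11 from 2608328 to 2699994 on the minus strand inside KCNQ1, was below the filter. It had 0.0841 FPKM in the control, 0.0938 in KO1 and 0.119 in KO2, from 366, 306 and 522 reads. These values were ordered opposite to those of H19, and the ratios were 1.11 (0.955 to 1.30) and 1.42 (1.24 to 1.63). KCNQ1, a potassium channel gene on the other strand, was at 2.26, 1.90 and 2.27 FPKM, and intron reads of either gene cannot be told apart from those of the other.

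The imprinted genes on other chromosomes covered 2 loci on chromosome 7, 1 on chromosome 15 and 2 on chromosome 20. MEST (ENSG00000106484; chromosome 7, 130486171 to 130506465, plus strand), a member of the alpha/beta hydrolase fold family, was at 7.71 FPKM in the control, 6.97 in KO1 and 6.95 in KO2. Both knockout libraries were slightly below the control (log2 -0.13 in each, with 27.4% of exon bases shared with other genes), by less than the uncertainty of the limma difference of -0.13 (SE 0.18, 95% interval -0.65 to 0.39, adjusted p = 1.00). GNAS (ENSG00000087460; chromosome 20, 58839718 to 58911192, plus strand), which encodes the stimulatory G protein alpha subunit, was at 41.9 FPKM in the control and in KO1 and at 38.4 in KO2. Its limma log2 difference was -0.06 (SE 0.18, 95% interval -0.58 to 0.46, adjusted p = 1.00). For MEST, GNAS and PHLDA2 these intervals do not reach a 2-fold change, whereas those of IGF2 and CDKN1C do.

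NNAT (ENSG00000053438; chromosome 20, 37521206 to 37523693, plus strand), a small membrane protein gene within an intron of BLCAP, was at least 2-fold above the control in both knockout libraries by FPKM. It was at 0.504 FPKM in the control, 1.49 in KO1 and 1.11 in KO2, from only about 32, 71 and 71 reads. The ratios were 2.96 (1.92 to 4.64) and 2.21 (1.43 to 3.46). Both knockout libraries were above the control, as was the case for 32.4% of genes past the filter. NNAT was below the filter and so had no limma test. Without the filter and the pseudocount it passed the 2-fold rule in both knockout libraries, as did 2.14% of 23778 genes in the higher direction. BLCAP, its host gene, was at 7.84, 8.33 and 8.32 FPKM.

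PEG10 (ENSG00000242265; chromosome 7, 94656325 to 94669695, plus strand), a retrotransposon-derived gene, had 0 reads in the control and KO1 and 2 reads in KO2, where 3 reads would be 0.00940 to 0.0126 FPKM. SNRPN (ENSG00000128739; chromosome 15, 24823637 to 24978723, plus strand), which encodes a core protein of splicing particles, had 0 reads in all 3 libraries, with 3 reads worth 0.0184 to 0.0247 FPKM. SNURF, which shares its transcripts, was listed at 0 as well. For both genes any change lay below what this depth could detect.

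Around H19, 80 gene identifiers of the table start within 1 Mb of its start, of which 28 were at 0 in every library and 23, H19 included, passed the filter. Of the other 22, 0 were 2-fold or more from the control in the same direction in both knockout libraries, beside 0.325% of all genes. limma called 0 of the 22, and 0 had an unadjusted p under 0.05, beside 0% and 1.19% of all genes. At these shares nothing is read from counts of 0 among 22. With no filter on low values, 7 of 51 had an unadjusted p under 0.05, beside 1578 of 28170 over all genes. Genes of few reads enter without the filter, such as CD81-AS1 with 6, 0 and 0 reads in the control, KO1 and KO2. Nothing is read from this count either. The median log2 ratio of the 22 was -0.13 in KO1 and -0.14 in KO2, against 0.04 and -0.01 over all genes. Of the 22, 9 were lower and 1 was higher than the control in both knockout libraries, where 27.7% and 32.4% of all genes were.

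**Figure D2:**
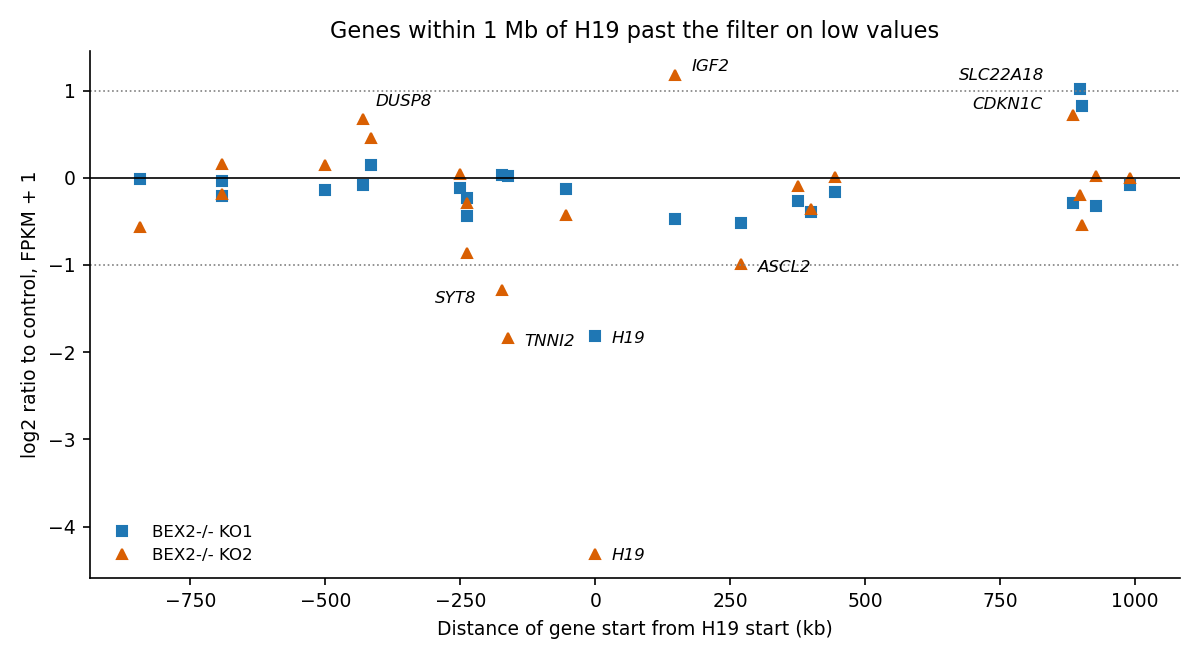
log2 ratio to the control (FPKM + 1) of the 23 genes past the filter within 1 Mb of H19, against the distance of each gene start from the H19 start in kb, for KO1 (squares) and KO2 (triangles). Dotted lines mark 2-fold. H19 lies at -1.82 and -4.31, and of the other genes none is past the same dotted line in both knockout libraries.

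ASCL2, which encodes an intestinal stem cell transcription factor and starts 269 kb from H19, had the lowest log2(FPKM + 1) ratio of the 22 in KO1, although IGF2 and AC068580.1 were lower by FPKM ratio, and fell short of the 2-fold rule in both knockout libraries. It was at 81.3 FPKM in the control, 56.6 in KO1 and 40.6 in KO2, in the same order as H19. The limma log2 difference was -0.75 (SE 0.27, 95% interval -1.54 to 0.05, adjusted p = 1.00), so it did not pass the test. MRPL23, a mitochondrial ribosomal protein gene between H19 and TNNI2, was at 39.4, 36.1 and 29.1 FPKM.

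Other neighbours differed between KO1 and KO2. TNNI2, a troponin gene, was at 8.61 FPKM in the control, 8.75 in KO1 and 1.68 in KO2, and SYT8, a synaptotagmin gene beside it, was at 3.86, 3.95 and 0.989. SLC22A18, a transporter gene of the second imprinted domain, was at 6.23, 13.7 and 5.29 FPKM. SLC22A18AS, which overlaps it on the other strand, was at 1.56, 3.53 and 0.753, with FPKM ratios to the control of 2.26 (1.82 to 2.83) in KO1 and 0.482 (0.352 to 0.655) in KO2. TNNI2 and SYT8 were thus near the control in KO1 and low in KO2, with a ratio of KO2 to KO1 of 0.193 (0.150 to 0.244) for TNNI2, and SLC22A18 was high in KO1, with a ratio of 0.386 (0.361 to 0.412), while 1.06% of all genes were at least 2-fold higher in KO1.

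Below the filter, MRPL23-AS1 moved with H19. This noncoding gene (chromosome 11, 1983237 to 1989920, minus strand) starts 5.256 kb beyond the 3' end of H19 and had 45 reads in the control, 9 in KO1 and 2 in KO2, or 0.505, 0.135 and 0.0223 FPKM. The ratio was 0.267 (0.115 to 0.552) in KO1 and 0.0442 (0.00519 to 0.169) in KO2, beside 0.277 and 0.0416 for H19. LINC01219, a noncoding gene on the opposite strand between the 2, had 9, about 12 and 0 reads. Whether the MRPL23-AS1 reads came from a transcript of its own or from RNA continuing past H19 was not tested. TH, the tyrosine hydroxylase gene 170 kb away on the other side, beyond IGF2, had 21, 3 and 1 reads, with ratios of 0.190 (0.0364 to 0.638) and 0.0474 (0.00115 to 0.294). KRTAP5-6, a hair keratin-associated gene, had 10, 1 and 3 reads, and its KO2 interval included no change (0.0528 to 1.16). With no pseudocount and no filter, 3 of 48 genes of the window other than H19 (MRPL23-AS1, TH and KRTAP5-6) were at least 2-fold lower in both knockout libraries, and 2.26% of all genes were. TH and KRTAP5-6 had over 3 reads in the control alone, so nothing is read from this count.

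**Figure D3:**
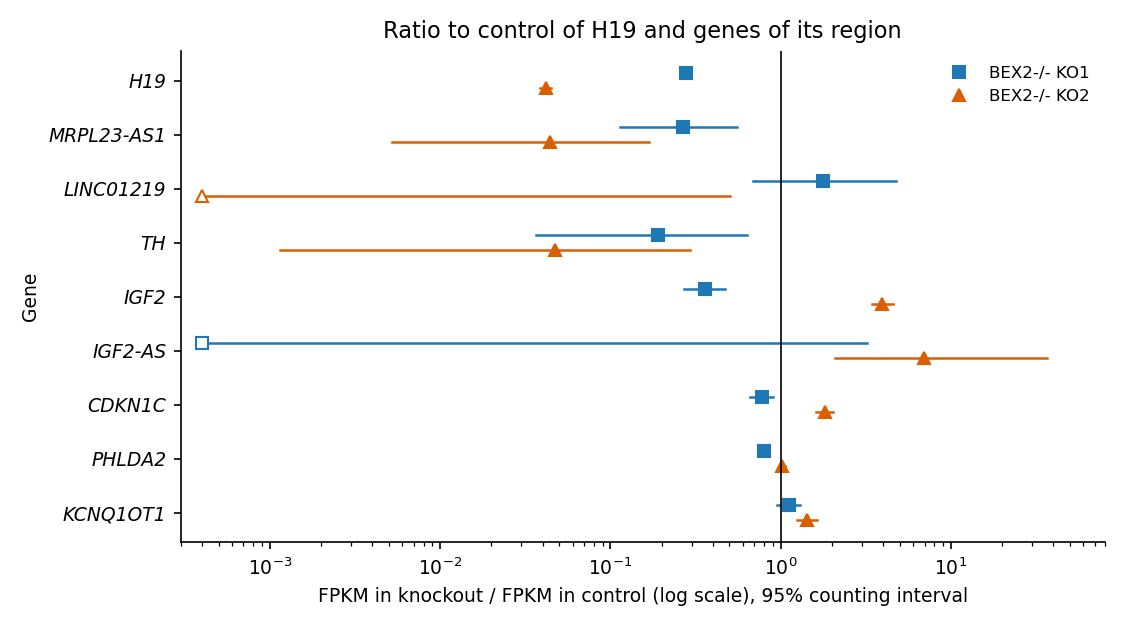
FPKM of each knockout library divided by FPKM of the control for H19 and selected genes of its region, on a log scale without a pseudocount. Lines are 95% counting intervals. Open symbols at the left edge mark 0 reads in that library. MRPL23-AS1 and TH lay below the control in both knockout libraries as H19 did, while IGF2 and CDKN1C lay on opposite sides of it. In KO1 and KO2, MRPL23-AS1 had only 9 and 2 reads and TH only 3 and 1.

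A wider list of imprinted genes, none of them among the 10, had 49 genes in the table. It is not confined to other regions, since KCNQ1, KCNQ1DN, SLC22A18, SLC22A18AS and IGF2-AS are also counted among the genes within 1 Mb of H19. Of the 49, 17 were at 0 in every library, among them DLK1, MEG3, PEG3, NDN and MAGEL2, and 18 passed the filter. In this list 0 genes were 2-fold from the control in both knockout libraries and limma called 0 (0 with an unadjusted p under 0.05). Over all genes these shares were 0.325%, 0% and 1.19%, so nothing is read from counts of 0 among 18. The median log2 ratio of the 18 was 0.13 in KO1 and 0.06 in KO2. In both knockout libraries 8 of the 18 were higher and 2 lower than the control, beside 32.4% and 27.7% of all genes. IGF2R, the receptor that clears IGF2 from the cell surface, had the highest mean ratio, with 6.33 FPKM in the control, 7.64 in KO1 and 12.8 in KO2 (limma log2 difference 0.58, SE 0.36, 95% interval -0.47 to 1.62, adjusted p = 1.00). DIO3, a thyroid hormone deiodinase gene, had the lowest, with 1.71, 1.38 and 1.19 FPKM.

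SGCE, the imprinted sarcoglycan gene that shares a promoter region with PEG10, was not detected in the control and was present in both knockout libraries. It had 0 reads in the control and about 33 in KO1 and 98 in KO2, or 0, 0.0441 and 0.0987 FPKM. Taken against 3 reads in the control library, KO1 was 14.6-fold and KO2 was 32.6-fold higher. The counting intervals of the ratios reached down to 11.3 and 25.9. It was far below the filter, and PEG10 had no more than 2 reads in the same libraries. MESTIT1, antisense to MEST, had 3, 7 and 8 reads, and its counting intervals included no change in both knockout libraries (0.710 to 18.6 and 0.637 to 15.5). Without pseudocount and filter, 30 list genes had 3 or more reads in some library. Of these, SGCE and MESTIT1 were the 2 at least 2-fold higher in both knockout libraries, against 2.14% of all such genes.

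Factors that establish or keep imprints were examined next. Of 21 in the table, 14 passed the filter, 0 were 2-fold from the control in both knockout libraries, and limma called 0 (0 unadjusted). Over all genes these shares were 0.325%, 0% and 1.19%, so nothing is read from counts of 0 among 14. The median log2 ratio of the 14 was 0.04 in KO1 and -0.03 in KO2. CTCF, the insulator protein bound at the H19/IGF2 control region, was at 19.3 FPKM in the control, 19.9 in KO1 and 18.1 in KO2. DNMT1, the maintenance DNA methyltransferase, was at 27.1, 24.8 and 24.2 FPKM. ZFP57, a zinc finger protein that protects methylated imprints, was at 15.5, 16.7 and 17.3 FPKM. TRIM28, the corepressor that ZFP57 recruits, had the lowest mean ratio of the list, with 161, 120.0 and 133 FPKM (limma log2 difference -0.34, SE 0.18, 95% interval -0.86 to 0.17, adjusted p = 1.00).

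Genes of the insulin-like growth factor axis, in which IGF2 is a ligand, were examined as well. Of 22 in the table, 7 passed the filter, and 0 were 2-fold from the control in both knockout libraries (0.325% over all genes). limma called 0 (0% over all genes), with 1 at an unadjusted p under 0.05 (1.19% over all genes). Their median log2 ratio was -0.23 in KO1 and -0.11 in KO2, while the median of their mean ratios was 0.17. Of the 7, 1 was higher and 2 were lower than the control in both knockout libraries, beside 32.4% and 27.7% of all genes. The higher gene was IGF2R, which is also counted in the wider imprinted list. The gene with the unadjusted p was IGFBP4, which encodes a secreted inhibitor of IGF signalling. It was at 6.92 FPKM in the control, 3.60 in KO1 and 3.54 in KO2 (limma log2 difference -0.79, SE 0.18, 95% interval -1.33 to -0.25, adjusted p = 1.00). IRS1, an adaptor of the receptors, was at 4.33, 3.55 and 8.04 FPKM, and IGF2BP2, an RNA-binding protein of IGF2 mRNA, was at 11.7, 9.71 and 20.7. For both, the control lay between the knockout libraries, a common order given the 32.4% and 27.7% above, so nothing is read from it. IGF1R, the main signalling receptor, was below the filter at 0.822, 0.797 and 0.641 FPKM.

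**Figure D4:**
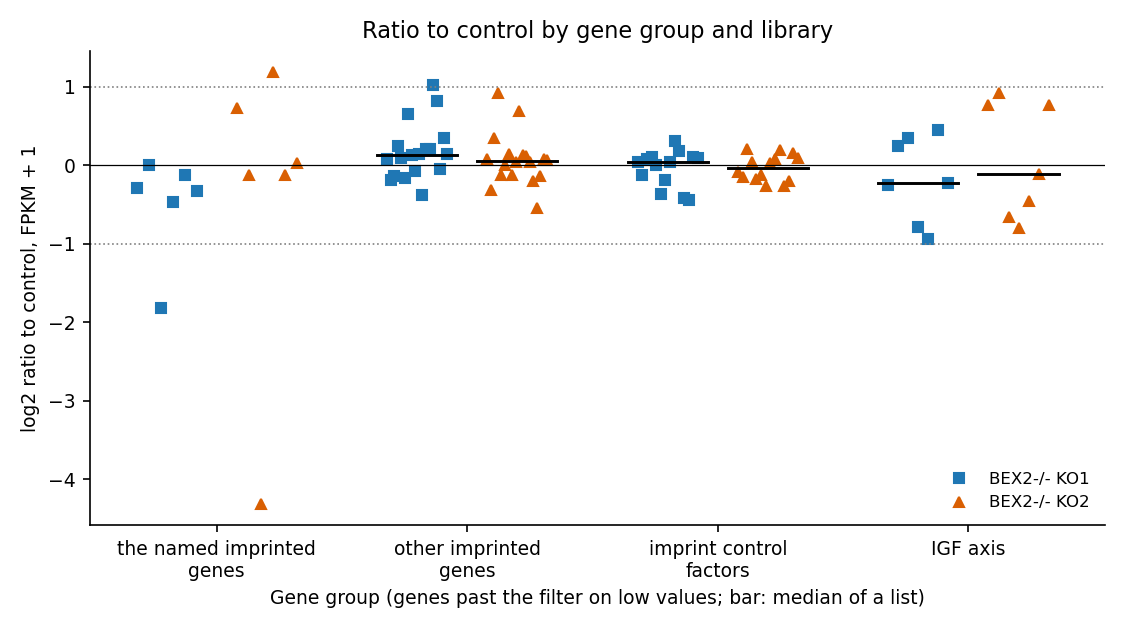
log2 ratio to the control (FPKM + 1) of the genes past the filter in each group, for KO1 (squares) and KO2 (triangles), with bars at the medians of the 3 lists. Dotted lines mark 2-fold. H19, at -1.82 and -4.31, is the lowest point in either knockout library, and the lists of other imprinted genes and of imprint control factors have medians between -0.03 and 0.13.

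By pattern over the pair of ratios to the control, the genes most like H19 among 11385 genes were CLDN2, TRBV30, IGFL2, TNNI2 and AF064858.3, at distances of 2.58 to 3.15 log2 units from it. CLDN2, the claudin of leaky epithelia, was at 5.39 FPKM in the control, 0.700 in KO1 and 0.916 in KO2. IGFL2, a secreted protein gene, was at 5.83, 3.44 and 0.821 FPKM. On this log2(FPKM + 1) scale none of the 11385 genes came near the pair of values of H19, since the closest was 2.58 log2 units away. The pseudocount limits how low a gene with a low control FPKM can go. By FPKM, TRBV30 was at 25.2% of the control in KO1 and 1.88% in KO2, from 10 and 1 reads. MRPL23-AS1, below the filter, had FPKM ratios of 0.267 and 0.0442, beside 0.277 and 0.0416 for H19. TNNI2, at 102% of the control in KO1, is the single one of the 5 nearest genes that also lies within 1 Mb of H19.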

How the data were processed

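RNA-Seq libraries of DLD1 control cells (1) and BEX2-/- DLD1 cells (2) had been prepared with the Illumina TruSeq RNA kit, which does not mark strand. The authors deposited FPKM values per gene. The submitters' processing notes name Trim Galore 0.3.7, STAR 2.5, Cufflinks 2.2.1, DESeq 1.22.1 and hg19, but the identifiers match GENCODE release 29 for 56996 of 60504 rows, and coordinates given here are on GRCh38. Nothing says that the libraries came from separate cultures, so p-values measure only the spread between these samples.

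The 10 genes, the lists and the window were chosen with earlier results of these data known, and genes singled out from a list were chosen after their values were seen. The genes named were the 10, those within 1 Mb of H19, the lists written from general knowledge, and the 5 genes nearest to H19 by Euclidean distance between log2 ratios. Ratios were taken as log2(FPKM + 1). The filter kept genes for which the average of 2 numbers, the control FPKM and the mean FPKM of the knockout libraries, reached 1. A gene had changed when both knockout libraries were 2-fold or more above the control, or both 2-fold or more below it. limma 3.58.1 (R 4.3.3; trend, two-sided, Benjamini-Hochberg adjustment over 11675 genes) had 1 residual degree of freedom and assumed that the control varied as the knockout libraries did. It was used because the values are not counts.

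Reads were recovered as FPKM times merged exon length times depth. Within 0.02, 98.7% to 98.8% of low values came out whole. They did not for several genes, among them H19, IGF2, CDKN1C, MEST, NNAT, SGCE and LINC01219, whose reads are approximate. Intervals of 95% on ratios are exact binomial (Clopper-Pearson) intervals, a count of 0 was taken to allow 3 reads, and both cover counting error only and compare libraries, not conditions. None of 10 housekeeping genes was listed at 0. Scripts (Python 3.11.15, numpy 2.4.6, pandas 2.3.3, scipy 1.17.1, matplotlib 3.10.9) were tested on simulated data. The alternatives were another pseudocount (0.1 FPKM), scaling by the median ratio or to TPM, other filters (none, 5 FPKM), a 1.5-fold threshold, limma without the trend, and omission of each knockout library. Ratios with no pseudocount and no filter were added after seeing the data. For the 2-fold rule on them, every value under 3 reads was set to 3 reads. Only annotated genes with 3 or more reads in some library were counted. RefSeq gave promoter sequences for 4 of the 10 genes.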

Additional observations from a re-analysis of the deposited data

How the results depend on the processing

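With 1 control library, a deviation of that library would move both ratios of every gene, and this could not be checked. H19 was at least 2-fold lower in each knockout library kept under every alternative run. Since H19 was chosen for this fall, nothing is read from that. The number of the 10 genes that changed in both knockout libraries, 1, ranged from 1 to 2 when 1 knockout library was left out (2, H19 and IGF2, without KO1) and was 2 (H19 and NNAT) with no pseudocount and no filter. In the wider imprinted list the count, 0, ranged from 0 to 1 (SLC22A18 without KO2) and was 2 (SGCE and MESTIT1) with no pseudocount and no filter. Near H19 the count, 1, ranged from 2 (H19 and SLC22A18, without KO2) to 4 (H19, IGF2, TNNI2 and SYT8, without KO1), and was 4 with no pseudocount and no filter. Leaving out a knockout library left limma no residual degrees of freedom, so those are values without a test. limma called 0 genes of each group under each alternative fitted. Near H19, an unadjusted p under 0.05 was given to 1 of 22 genes with median-ratio scaling (154 of 11675 over all genes). With no filter it was given to 7 of 51 (1578 of 28170 over all genes), and under the others to 0. Nothing is read from these counts. The log2 ratio of GNAS in KO1 went from 0.00 to -0.04 with median-ratio scaling. Of 54 recomputed member ratios, 16 moved by more than the spread between the knockout libraries. That spread differs by gene, so this count does not measure stability. With the 0.1 FPKM pseudocount, IGF2 in KO1 went from -0.47 to -1.20 and did not count as moved. MEST in KO1 went from -0.13 to -0.14 and did. No paired analysis was possible because the control has 1 library and shares fewer than 2 replicate numbers with the knockout libraries.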
